A study of Ovis aries with 6 samples.

Results

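CYP1A1, PGFS and GLUD1 are 3 enzyme genes whose array signals were higher in groin skin than in body side skin of Aohan fine wool sheep. CYP1A1 is a cytochrome P450 of drug metabolism, PGFS is prostaglandin F synthase and GLUD1 is glutamate dehydrogenase 1. They were chosen for that difference on these same arrays, so their levels and differences are a description and carry no test. All probes of the 3 genes were taken, by symbol, by accession or by an accession shared with a named probe. This gave 6 of the 15008 probes on the array: 1 for CYP1A1, 2 for PGFS and 3 for GLUD1. All 6 passed the filter on dim signals, which required a signal well above background on at least 1 of the 6 arrays and left 13924 probes.

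Each skin area was measured on 3 one-colour arrays. Body side skin bears wool and groin skin bears none, so the contrast asks which transcripts differ between these kinds of skin. The sheep, a ram and ewes, were 16 months old and shared a father, and full-thickness skin of both areas came from the same animals. Which array belongs to which animal is not given in the sources used here.

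CYP1A1 oxidizes polycyclic aromatic and other foreign compounds, and its gene is the classic target of the aryl hydrocarbon receptor AHR, which is active in the epidermis and sebaceous gland. PGFS belongs to the aldo-keto reductases and converts prostaglandin precursors to prostaglandins of the F series, which act through the receptor PTGFR. GLUD1 is a mitochondrial enzyme that turns glutamate into 2-oxoglutarate and ammonia, and so joins amino acid metabolism to the tricarboxylic acid cycle.

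Between 74.1% and 92.3% of the spots on an array were well above background, the highest share being that of groin replicate 1. The median processed signal was 180 to 193 on the groin arrays and 97.5 to 130 on the body side arrays. Quantile normalization removes such a difference of whole arrays, and all log2 levels below are after it. By limma 1170 probes were called, that is, had a Benjamini-Hochberg adjusted p under 0.05 and a fold of at least 2. Of these, 58.03% were lower in body side skin, or 75.9% of calls when arrays were scaled by their 75th percentile. The number of arrays limits the precision, and p-values measure only the spread between these samples. The arrays numbered 1 had the lowest limma array weights, 0.21 for groin and 0.11 for body side, so member values are also given without them.

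CYP1A1 had the largest difference of any tested probe in the direction of groin skin. Its probe A_70_P041841 read 12.72, 11.65 and 11.43 on the log2 scale in groin replicates 1, 2 and 3. The body side replicates read 6.22, 6.87 and 6.86. Every groin array was therefore above every body side array, and the lowest groin level lay 4.56 log2 units above the highest body side level. The means were 11.94 ± 0.69 in groin skin and 6.65 ± 0.38 in body side skin (SD, n = 3 each). The log2 difference of body side minus groin was -5.29 (SE 0.39), or 39.0-fold higher signal in groin skin. It was the lowest of all 13924 differences. Before normalization the processed signals, in scanner units, were 6920, 3419 and 3022 on the groin arrays. They were 65.9, 75.3 and 85.3 on the body side arrays, yet above background on all 3. Without the arrays numbered 1 the log2 difference was -4.68, and with the normexp background correction it was -4.50. Each of these brings the fold more than 1.5 times nearer to 1, with the direction unchanged.

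**Figure D1:**
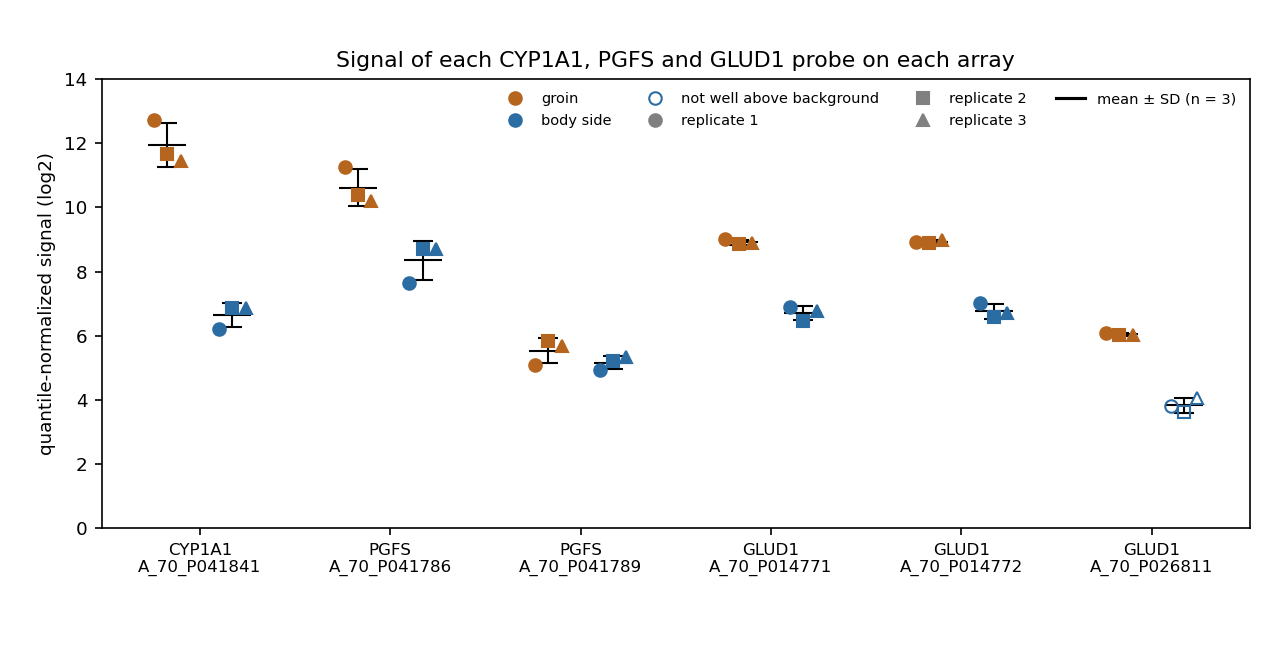
Quantile-normalized log2 level of the 6 probes of CYP1A1, PGFS and GLUD1 on each array, groin and body side, with the mean of each area as a bar and the SD as an error bar. The areas are apart for 5 probes and overlap for PGFS A_70_P041789, whose groin values run from 5.09 to 5.82 and body side values from 4.93 to 5.32.

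Of the 6 probes, 5 were called as lower in body side skin, where 4.88% of all tested probes were. The same 5 had every body side array below every groin array, which held for 17.9% of all tested probes. Over all tested probes 8.4% were called in either direction and 3.53% as higher in body side skin. Since this contrast chose the genes, nothing is read from either share. The exception was the second PGFS probe. In bulk skin, fewer cells of a type and less RNA per cell cannot be told apart.

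The PGFS probes gave different pictures. A_70_P041786 read 11.27, 10.38 and 10.21 in groin replicates 1, 2 and 3, and 7.64, 8.71 and 8.70 in the body side replicates. Its areas stood apart by 1.50 log2 units. Its means were 10.62 ± 0.57 and 8.35 ± 0.61 (SD, n = 3 each), a log2 difference of -2.27 (SE 0.41) or 4.83-fold, and it ranked 210 from the lowest difference. Body side replicate 1, the lowest array, and groin replicate 1, the highest, both widened it. Without this pair of arrays the log2 difference was -1.59, with body side skin still lower.

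The other PGFS probe, A_70_P041789, lies on the same expressed sequence tag accession. It read 5.09, 5.82 and 5.67 in groin skin and 4.93, 5.21 and 5.32 in body side skin. Groin replicate 1 was the lowest groin array here, whereas it was the highest for A_70_P041786, and the areas overlapped. The log2 difference was -0.37 (SE 0.24), or 1.29-fold. Its processed signals before normalization were 50.5, 76.5 and 65.6 against 25.8, 23.3 and 29.9, which do not overlap, with a ratio of means of 2.44. For A_70_P041786 those signals were 2661, 1527 and 1391 against 179, 300.3 and 328, with a ratio of 6.90. Both probes were well above background on all 6 arrays. Why they differ was not tested, and the groin excess of PGFS rests on A_70_P041786.

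GLUD1 values varied little between the groin arrays. A_70_P014771 read 9.00, 8.85 and 8.90 in groin skin and 6.89, 6.46 and 6.78 in body side skin. A_70_P014772, on the same accession, read 8.91, 8.90 and 8.98 against 7.02, 6.57 and 6.69. All groin arrays exceeded all body side arrays on both probes, by at least 1.96 and 1.88 log2 units. The log2 differences were -2.20 (SE 0.17) and -2.17 (SE 0.17), or 4.61- and 4.49-fold, so the probes of this accession gave nearly the same value. Leaving out each array in turn gave log2 differences between -2.29 and -2.07 over both probes, so no single array set their size. With the normexp background correction the differences were smaller, at -1.60 and -1.64.

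The remaining GLUD1 probe, A_70_P026811, targets an expressed sequence tag. It read 6.09, 6.02 and 6.01 in groin skin and 3.80, 3.61 and 4.06 in body side skin, where it was not well above background on any of the 3 arrays. Its body side level has only a bound, and groin skin was at least 4.17-fold higher. For the bound, each body side array contributed the dimmest signal still well above background on it, or the signal of A_70_P026811 if that was brighter, and their mean was set against the groin mean. The fold of 4.49 to 4.61 on the other probes lies above this bound. With 75th percentile scaling the bound was 5.68-fold. The other probes then had log2 differences of -2.48 and -2.45, folds slightly below that bound. With normexp the bound was 1.70-fold. In processed signal the ratio of means was 7.35, 7.15 and 8.54 for A_70_P014771, A_70_P014772 and A_70_P026811, before whole-array brightness was removed.

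The spread within an area entered the choice of the genes through the study's error rate, and is given here as a description. For CYP1A1 groin replicate 1 lay 0.78 log2 units above the groin mean, and replicates 2 and 3 lay below it. The groin SD of 0.69 exceeded that of 98.2% of the 883 probes of like signal, whose median SD was 0.13. PGFS A_70_P041786 behaved alike, with groin replicate 1 at 0.65 above its mean and an SD larger than in 95.8% of like probes. In body side skin replicate 1 was 0.71 below the mean of PGFS A_70_P041786 and 0.43 below that of CYP1A1, with replicates 2 and 3 above it. The body side SD was larger than in 56.3% of like probes for CYP1A1, in 87.6% for PGFS A_70_P041786 and in 18.2% for PGFS A_70_P041789. For GLUD1 the groin SDs were 0.08, 0.04 and 0.04 on A_70_P014771, A_70_P014772 and A_70_P026811, against medians of 0.15, 0.15 and 0.20 in like probes. GLUD1 was also less variable than the median like probe in body side skin, with SDs of 0.22 to 0.23, beside 0.20 for PGFS A_70_P041789.

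**Figure D2:**
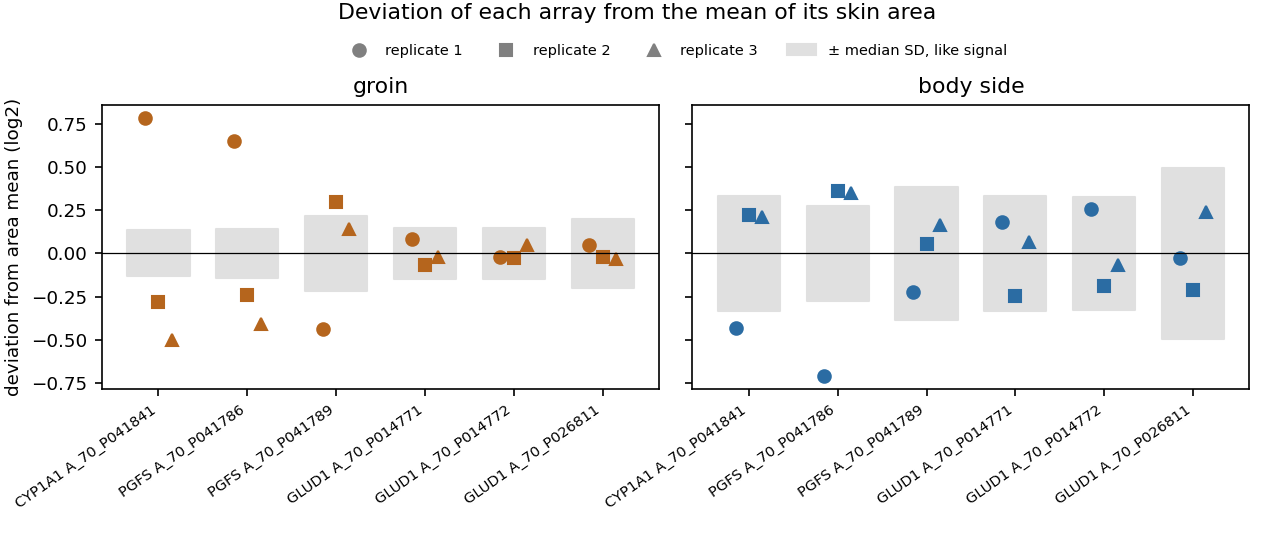
Deviation of each array from the mean of its skin area (log2) for the 6 probes, groin at left and body side at right, with replicate number as marker shape and grey bars for plus and minus the median SD of probes of like signal. Replicate 1 is high in groin and low in body side skin for CYP1A1 and PGFS A_70_P041786, and the GLUD1 points lie within the grey bars.

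Taking the deviations from the area means over the 6 arrays, CYP1A1 and PGFS A_70_P041786 had a Pearson r of 0.95. GLUD1 had an r of -0.32 with CYP1A1 and of -0.56 with PGFS A_70_P041786. The probe PGFS A_70_P041789 had an r of -0.52 with CYP1A1. These points share their arrays. For CYP1A1 and PGFS A_70_P041786 replicate 1 deviated most in each area, and the r without the arrays numbered 1 was not computed. The order of groin replicate 1 highest and body side replicate 1 lowest of their areas was found in 21.5% of all tested probes. The part of whole-array effects in these values was not tested.

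The slide held both areas in each of its rows and in 1 column. Column 1 held only groin arrays and column 3 only body side arrays, so column and area largely coincide. Column 2 compared 1 groin with 1 body side array, row 1 compared 2 with 1, and row 2 compared 1 with 2. Within slide row 1, within row 2 and within column 2, the log2 differences were -5.21, -5.12 and -5.22 for CYP1A1. They were -2.03, -2.21 and -2.57 for PGFS A_70_P041786. For GLUD1 A_70_P014771 they were -2.48, -2.01 and -2.00, and for A_70_P014772 -2.37, -2.04 and -1.96. The values for PGFS A_70_P041789 were -0.17, -0.70 and -0.74. At each slide position compared, these probes had the lower level in body side skin, with the size least steady for the last one. For all but the last, every groin array exceeded every body side array, so that direction was fixed in advance.

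**Figure D3:**
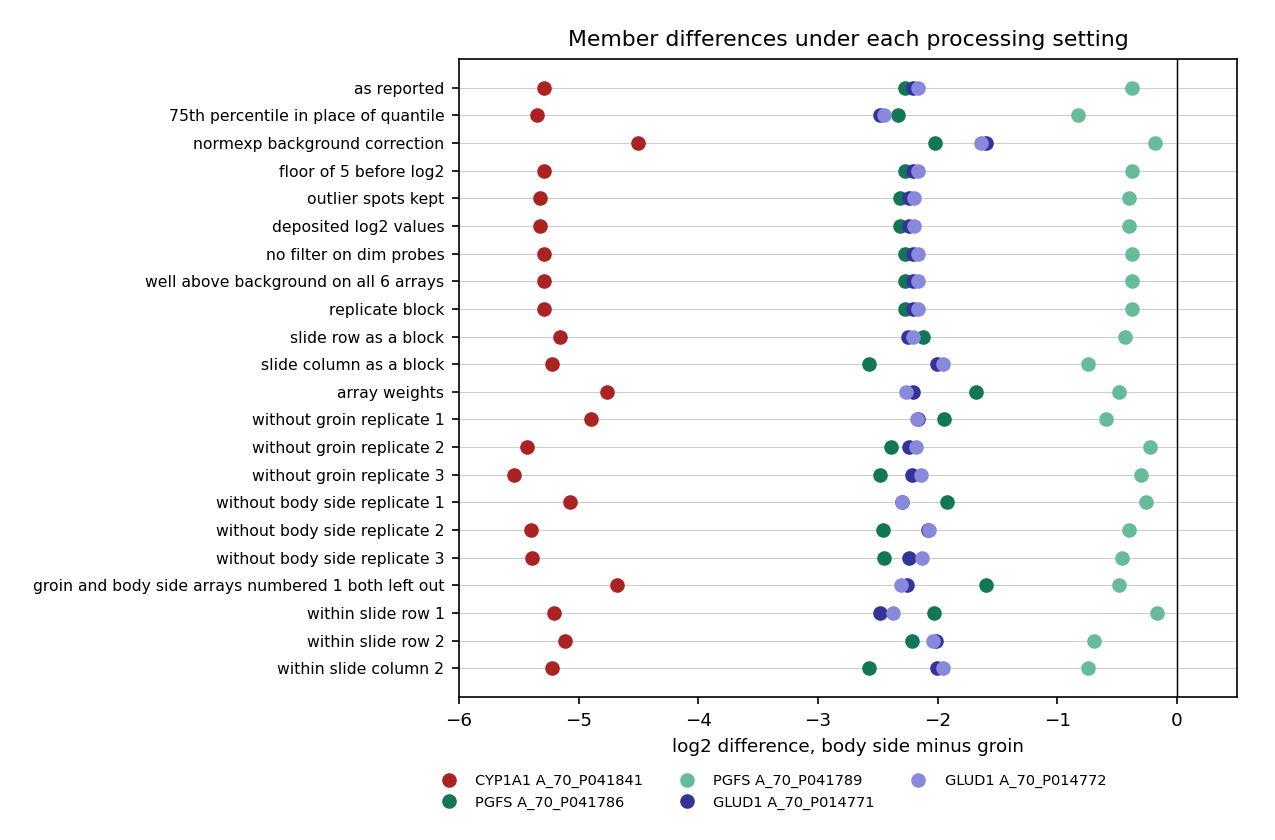
Log2 difference of body side minus groin for CYP1A1, both PGFS probes and the GLUD1 probes measured on all 6 arrays, as reported and under each other processing setting. All points lie below 0, from -5.54 to -4.50 for CYP1A1 and from -0.83 to -0.17 for PGFS A_70_P041789.

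PGFS had 2 relatives among the named aldo-keto reductases, LOC101106865 and LOC101109111, with 3 probes. Their names come from a supplementary table of the study that lists only probes it had called, so their direction is not independent evidence. LOC101109111 A_70_P050535 read 10.69, 10.44 and 10.37 in groin replicates 1, 2 and 3 and 6.40, 7.59 and 7.90 in the body side replicates. It was called, with a log2 difference of -3.20 (SE 0.40, limma adjusted p = 0.017). In the order of protein-coding genes in RefSeq, LOC101109111 lies 4 genes before PGFS.

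LOC101106865 was more uneven. Its probe A_70_P049151 read 11.23, 11.91 and 10.92 against 5.49, 8.47 and 8.67, a log2 difference of -3.81 (SE 0.87, limma adjusted p = 0.041). The second probe, A_70_P053576, read 11.73, 11.93 and 11.93 against 5.74, 9.59 and 9.57. Its log2 difference was -3.56 (SE 1.04), and with a limma adjusted p of 0.066 it was not called. Without body side replicate 1 the log2 differences were -2.79 and -2.28, and both probes were called. Body side replicate 1 was the lowest array for both genes and for PGFS A_70_P041786. These aldo-keto reductase probes can share signal where transcripts are near identical, which was not tested.

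**Figure D4:**
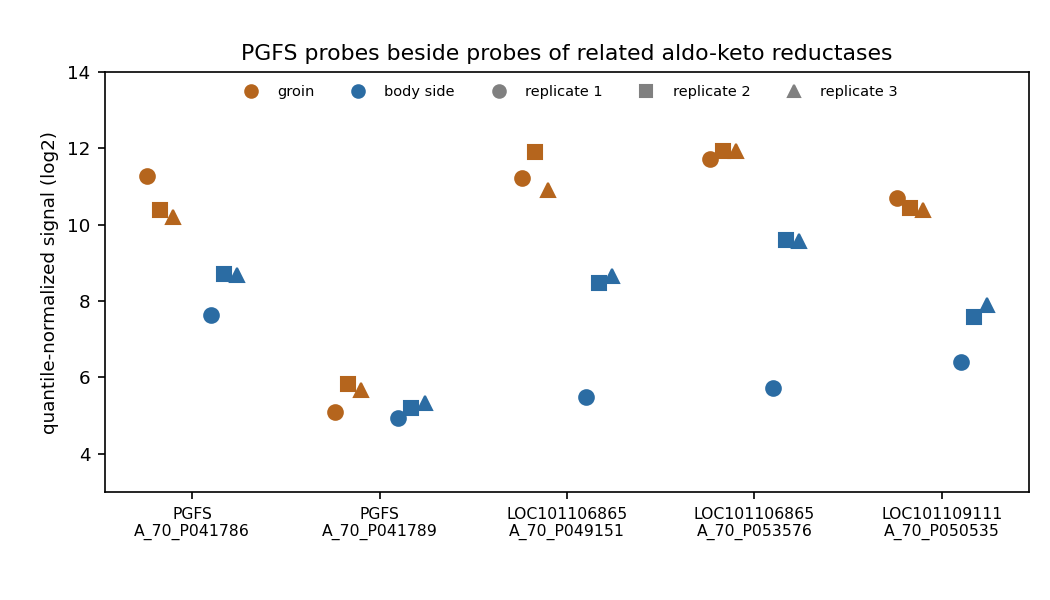
Quantile-normalized log2 level on each array for the PGFS probes and for the probes of the aldo-keto reductases LOC101106865 and LOC101109111, with replicate number as marker shape. Body side replicate 1 is the lowest array for all 5 probes, and the areas overlap for PGFS A_70_P041789 alone.

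Around CYP1A1, a list of 55 symbols of the AHR pathway and drug metabolism had 10 tested probes. Over all tested probes 8.4% were called, and of the 4 probes named by RefSeq accession 1 was, with the higher level in groin skin. It was ALDH1A1, which makes retinoic acid from retinal and also oxidizes toxic aldehydes. ALDH1A1 read 13.77, 13.27 and 13.28 in groin skin and 10.12, 11.57 and 11.36 in body side skin, a log2 difference of -2.43 (SE 0.41, limma adjusted p = 0.025). These 4 probes come from 3 genes and lay on both sides of 0, with a median log2 difference of 0.09, beside 0.09 for all tested probes. CYP3A24, another drug-metabolizing P450, had a log2 difference of -0.08 (SE 0.20, limma adjusted p = 0.79). UGT1A9 stood on the other side of 0, at 0.28 (SE 0.91) and 0.26 (SE 0.83), and was not called.

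The other 6 probes were named through the supplementary table of called probes, and here 4 were called as lower and 1 as higher in body side skin. AHR itself had a log2 difference of -1.01 (SE 0.14, limma adjusted p = 0.019), with 2 of 3 body side arrays above background. With normexp it was -0.16 and not called. POR, which passes electrons to P450 enzymes, was above background on no body side array and at least 1.55-fold higher in groin skin. Its call used body side values not well above background, so no p is given for the bound. With normexp the log2 difference of POR was -0.41 and not called. EPHX2, an epoxide hydrolase, had a log2 difference of -1.68 (SE 0.40, limma adjusted p = 0.045). The glutathione transferase GSTA1-1 was called on A_70_P016352 at -1.02 (SE 0.25, limma adjusted p = 0.048) and not on A_70_P016351 at -0.88 (SE 0.32, limma adjusted p = 0.10). CYP2C19, also a drug-metabolizing P450, ran the other way at 1.14 (SE 0.28, limma adjusted p = 0.048), or 0.23 and not called with normexp. Since called probes supplied these names, the directions are not independent evidence. Of the 10 probes of the list, 6 had groin replicate 1 highest and body side replicate 1 lowest, among them ALDH1A1, AHR, POR and both of GSTA1-1. The share over all tested probes was 21.5%, and no trait of the list is read from this count, as most of these probes were named through called ones. Without the arrays numbered 1 the log2 difference of ALDH1A1 was -1.81, and that of GSTA1-1 A_70_P016352 was -0.64 and not called.

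Around PGFS, none of the 6 RefSeq-named probes of prostaglandin synthesis, transport and receptors was called by limma, where 8.4% of all tested probes were. Of the 6, 2 had an unadjusted p under 0.05, as had 5248 of the 13924 tested probes. The 6 probes came from 5 of the 36 symbols of the list, and their median log2 difference was -0.30. PTGS1, a cyclooxygenase that starts prostaglandin synthesis, had a log2 difference of -0.39 (SE 0.14, limma adjusted p = 0.095). The inducible cyclooxygenase PTGS2, on A_70_P039256, stood at 0.78 (SE 0.40, limma adjusted p = 0.21). PTGFR, the receptor for prostaglandin F2 alpha, stood at -0.20 (SE 0.24, limma adjusted p = 0.56), and PTGDS, which makes prostaglandin D2, at -0.53 (SE 0.25, limma adjusted p = 0.17). SLCO2A1, a prostaglandin uptake carrier, had the lowest value at -0.97 (SE 0.30, limma adjusted p = 0.074). None of the steps on either side of PGFS passed the test, and the signs of PTGS2 and PTGFR changed with the processing.

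PTGER3, a receptor for prostaglandin E2 named through the supplementary table, went the other way. Since called probes supplied its name, the call and its direction are not independent evidence. A_70_P041077 read 6.61, 7.33 and 7.24 in groin skin and 7.89, 8.35 and 8.52 in body side skin, a log2 difference of 1.20 (SE 0.27, limma adjusted p = 0.039). The second PTGER3 probe, A_70_P041076, stood at 0.99 (SE 0.25, limma adjusted p = 0.051) and was not called. Its areas did not overlap, as its highest groin level was 7.47 and its lowest body side level 7.91.

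Around GLUD1, none of the 4 RefSeq-named probes of glutamate and glutamine metabolism was called by limma, 2 of them with an unadjusted p under 0.05, and their median log2 difference was 0.12. The 8 probes named through the supplementary table had 4 calls higher and 2 lower in body side skin, while 8.4% of all tested probes were called. Since called probes supplied these names, neither the calls nor the directions are independent evidence. Both of the lower ones were probes of EAAT2, a glutamate uptake transporter. EAAT2 was above background on all groin arrays and on no body side array, so it passed the filter through groin skin alone. Groin skin was at least 2.41- and 2.38-fold higher. The calls used body side values not well above background, so no p is given for these bounds. With normexp the log2 differences of EAAT2 were -0.45 and -0.63, smaller than these bounds, and not called. The higher ones were 3 genes of amino acid transport and breakdown and 1 of glutathione synthesis. They were SLC1A4, a neutral amino acid carrier, at 1.38 (SE 0.14, limma adjusted p = 0.011), LAT1, a carrier of large neutral amino acids, at 1.06 (SE 0.23, limma adjusted p = 0.036), KYNU, kynureninase, at 1.42 (SE 0.25, limma adjusted p = 0.026), and GCLM, a subunit of the enzyme that joins glutamate to cysteine, at 1.19 (SE 0.15, limma adjusted p = 0.016). With normexp LAT1 and KYNU stood at 0.46 and 0.77 and were not called. SLC3A2, the partner chain of LAT1, stood at -1.34 (SE 0.36, limma adjusted p = 0.055) and was not called. In the tricarboxylic acid cycle list, 1 of 24 symbols had a named probe, IDH1, a cytosolic isocitrate dehydrogenase, at 0.03, and it was not called.

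**Figure D5:**
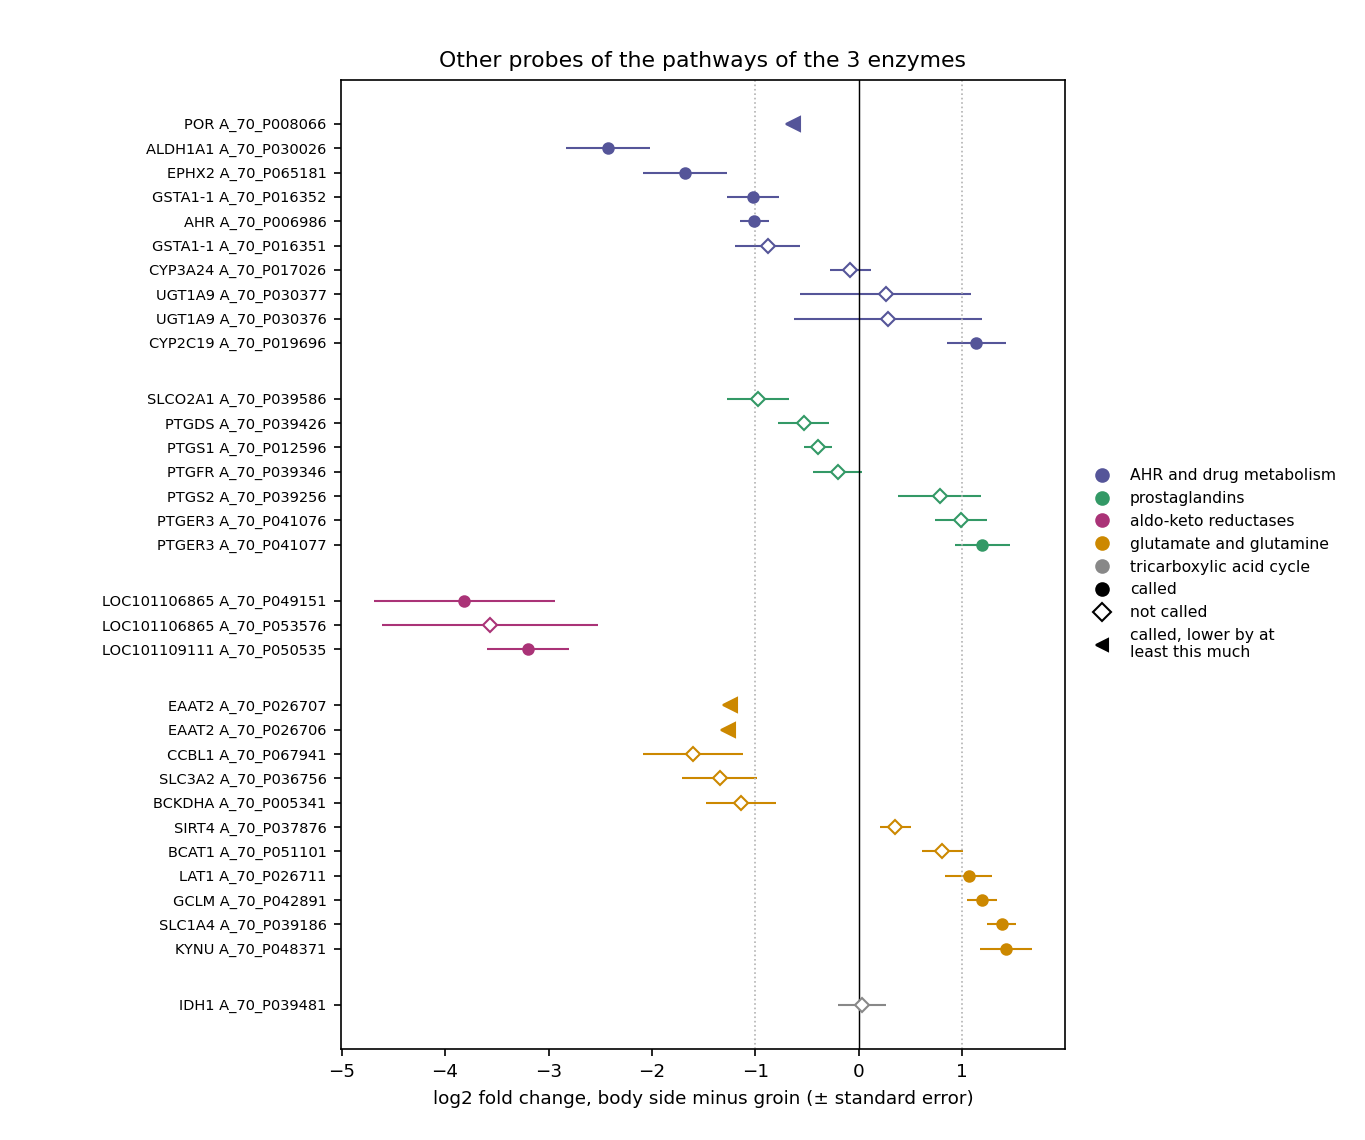
Log2 fold change of body side minus groin, with its standard error, for the named probes of the lists around the 3 enzymes, filled where called, open where not, and as a triangle at the bound where body side skin was not above background on any array. PTGS2 A_70_P039257 and BCAT1 A_70_P051102, above background on no body side array and without a bound, are not drawn. ALDH1A1 and the aldo-keto reductases lie lowest, and PTGER3, CYP2C19, LAT1, GCLM, SLC1A4 and KYNU lie at the right, above 1.

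The named probes with the pattern most like each member were found by Pearson correlation over the 6 arrays among the 10397 probes above background on all of them. For CYP1A1 they were APLP2, TFAP2A, GKN1, CATHL3 and SLMAP, with r from 0.988 to 0.995. For PGFS A_70_P041786 they were GSTA1-1, TSC22D3, ALDH1A1, GKN1 and SLMAP, with r from 0.980 to 0.990. GKN1, a gastrokine, and SLMAP, a membrane-associated protein, stood in both sets, and ALDH1A1 and GSTA1-1 belong to the list around CYP1A1. The members were chosen for the difference between areas, so a high r over the 6 arrays partly restates it. CYP1A1 and GLUD1 had an r of 0.97 on levels but of -0.32 on deviations from the area means. Several matches were also named through the table of called probes, and no link between genes is read from them. For GLUD1, the mean of A_70_P014771 and A_70_P014772 was most like CONNEXIN 43, the main gap junction protein of skin, with an r of 0.9997. CREM, LAMA4, HNRNPH1 and LOC101107436 followed, with r from 0.995 to 0.997. PGFS A_70_P041789 had its nearest match in the water channel AQP8, at 0.956. Over all these probes, with or without a name, 21, 11 and 42 exceeded 0.99 for CYP1A1, PGFS A_70_P041786 and GLUD1.

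The skin label held, as all 8 RefSeq-named probes of epidermis and hair follicle, among them KRT25, KRT27, K38 and SFN, were above background on all 6 arrays. Both K38 probes were called as higher in body side skin, with log2 differences of 3.06 (SE 0.41) and 2.14 (SE 0.17). The other 6 were not called, among them KRT25 at 0.11 and -0.04 and KRT27 at 0.14. Of the 7 RefSeq-named sebaceous gland probes, from 5 of 15 symbols, 1 was called, SCD, as lower in body side skin, and 6 were not. SCD was above background on no body side array, so it passed the filter through groin skin alone. Its call used body side values not well above background, and groin skin was at least 4.36-fold higher. The summed level of the 7 probes was 36855 to 57867 in groin skin and 18079 to 37628 in body side skin, so the ranges overlapped slightly. This sum is almost wholly PLIN2 and PPARG, none of whose probes was called, and PPARG is also on the adipocyte list. ACACA went the other way, at 0.94 and 0.37, and was not called. CNN1, the single smooth muscle marker named here, was 12414 to 15103 in groin skin and 4506 to 7674 in body side skin. The 6 probes of the liver list went both ways, with AHSG called as higher and ALB as lower in body side skin on 2 probes each. Their sum was 1253 to 1951 in groin and 2527 to 2803 in body side skin. Milk protein probes of the mammary gland, a tissue near the groin, summed to 426 to 621 in groin and 863 to 1046 in body side skin, and 4 of their 8 probes were above background on no array. The part of hair follicle, sebaceous gland, smooth muscle and other cell content in the levels of CYP1A1, PGFS and GLUD1 was not tested.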

How the data were processed

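The authors hybridized skin RNA to one-colour Agilent sheep arrays and deposited spot intensities as processed and background-corrected by the scanner software (Agilent Feature Extraction 10.5.1.1) and a table of log2 values after quantile normalization. Here control spots and outlier spots were left out, log2 intensities were averaged over the spots of a probe, and arrays were quantile normalized. Each member probe had 1 spot. Probes that exceeded background clearly (the scanner's own flag) on 1 or more arrays were fitted with limma 3.58.1 in R 4.3.3, body side against groin, with Benjamini-Hochberg adjustment and no block. Members were given no p. Spot positions place all 6 arrays on 1 slide in 2 rows and 3 columns, whereas the methods state a slide for each RNA sample. Names came from the probes' RefSeq accessions (734 probes, assembly ARS-UI_Ramb_v3.0, names only), from a supplementary table of the study (299) or from an accession shared with such a probe (32), which left 13943 without a name here. CYP1A1 was named by RefSeq accession, GLUD1 and PGFS through the supplementary table or a shared accession. The genes named besides the members were called members of the pathway lists, a fixed set of pathway genes whether called or not, and the 5 most correlated named probes. Cell type markers and some uncalled list genes outside the fixed set, CYP3A24, UGT1A9, PTGDS, SLCO2A1, SLC3A2 and IDH1, were named besides. Members and lists were chosen with earlier results of these data known. No label says that a replicate number marks an animal, so the numbers were not taken to pair the samples. Same-numbered arrays deviated together with r of 0.13, 0.073 and 0.057, and differently numbered ones with r from -0.12 to 0.13. With 3 arrays per area these values cannot settle the pairing. Settings varied were the normalization, background correction, floor, filters, outlier spots, deposited values, blocks, array weights and arrays left out. The columns of fold changes and p-values in the study's supplementary tables were not used.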

Additional observations from a re-analysis of the deposited data

How the results depend on the processing

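CYP1A1, both PGFS probes and the GLUD1 probes measured on all arrays kept their direction under all settings run. With 75th percentile scaling, which moved the median of all probes from 0.088 to -0.030, log2 differences were -0.83 for PGFS A_70_P041789, -2.48 for GLUD1 A_70_P014771 and -2.45 for A_70_P014772, and the bound for A_70_P026811 was 5.68-fold. With normexp they were -4.50 for CYP1A1, -1.60 and -1.64 for A_70_P014771 and A_70_P014772, and the bound was 1.70-fold. With slide column as a block they were -0.74 for PGFS A_70_P041789 and -2.00 and -1.96 for these GLUD1 probes, as within column 2. Within row 1 the GLUD1 pair had -2.48 and -2.37, and within row 2 A_70_P014771 had -2.01 and PGFS A_70_P041789 -0.70. PGFS A_70_P041786 was -1.68 with array weights. Leaving out both arrays numbered 1, added after seeing the data, gave -4.68 for CYP1A1 and -1.59 for PGFS A_70_P041786. Leaving out each array in turn gave -5.54 to -4.89 for CYP1A1, -2.48 to -1.92 for PGFS A_70_P041786, -0.59 to -0.22 for A_70_P041789, -2.29 to -2.08 for GLUD1 A_70_P014771, -2.29 to -2.07 for A_70_P014772, and a bound of 3.99 to 4.31. A_70_P026811 has no value where all 6 arrays must be above background. The cause was not tested.

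Calls were less stable. Over the array, normexp gave 445, the replicate block 8, slide row 52, slide column 0 (1875 at an unadjusted p under 0.05), array weights 3367 and both arrays numbered 1 left out 3272. Leaving out 1 array gave 11 to 2959, namely 809, 14 and 11 without groin replicates 1, 2 and 3 and 2959, 45 and 64 without body side replicates 1, 2 and 3. Of the RefSeq-named AHR and drug list, 0 were called with the replicate block, slide row or slide column, and 0 to 1 with each array left out. The prostaglandin list had 1 call with array weights or both arrays numbered 1 left out, and the glutamate list had 1 with these or with all 6 arrays above background; each had 0 to 1 with an array left out. PTGS2 A_70_P039257 was -0.11 with 75th percentile scaling, -0.38 with slide column and -0.046 without body side replicate 2 (-0.046 to 0.81 with each array left out), and A_70_P039256 was -0.14 with slide column. PTGFR was 0.073 with array weights, 0.019 without body side replicate 1 (-0.35 to 0.019 with each array left out) and 0.12 without both arrays numbered 1. Of the 15 pathway probes called, those still called were 6 with normexp, 1, 2 and 0 with the replicate, row and column blocks, 8, 1 and 2 without groin replicates 1, 2 and 3, and 12, 2 and 3 without body side replicates 1, 2 and 3. Over all settings, 218 values of single pathway probes kept their side of the threshold, 125 lost the call and 5 gained it. With 3 arrays per area and dim body side signals, A_70_P026811 gave only a bound.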
